A study of Sus scrofa with 12 samples.

Results

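The nuclear genome of the pig encodes most subunits of the oxidative phosphorylation system, and transcripts of 39 such genes were measured in the skeletal muscle of 12 pigs. Members were taken by symbol: NDUFA, NDUFB, NDUFC, NDUFS and NDUFV genes without the NDUFAF assembly factors, SDHA to SDHD, UQCR genes, CYC1, CYCS, COX4 to COX8 genes and ATP5 genes. These 39 genes were found among 20741 features in the count tables, of which 10349 could be paired with a symbol. Of 74 pig symbols that satisfied the rule in the name table, the other 35, among them CYC1, SDHA and the muscle isoforms COX6A2 and COX7A1, are not analysed here. The members comprised 15 subunits of complex I, 3 of complex II, 6 of complex III, 8 of complex IV, 6 of complex V and cytochrome c as 1 gene. NDUFA4 and NDUFA4L2 were placed with complex IV despite their names, because NDUFA4 is now known as a complex IV subunit and NDUFA4L2 is its close relative.

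Oxidative phosphorylation runs in the inner mitochondrial membrane. Complexes I and II pass electrons from NADH and succinate to ubiquinone, complex III passes them on to cytochrome c, and complex IV hands them to oxygen. Complexes I, III and IV pump protons, and complex V, the ATP synthase, uses the returning protons to make ATP. In skeletal muscle the system is richest in slow oxidative fibres, and a few core subunits of complexes I, III, IV and V come from the mitochondrial genome.

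The study contrasted muscle of pigs with high drip and with low drip, where drip is the fluid that meat loses after slaughter. Each drip group held 6 animals, 3 females and 3 males, and each animal gave 1 library of total RNA from muscle. The labels name no breed, treatment or genotype for either group and no particular muscle. Mean age was 176 ± 6.92 days with high drip and 178 ± 6.74 days with low drip (SD, n = 6 each), and single pigs were 167 to 189 days old. Within each group, replicates 1 to 3 are females and replicates 4 to 6 are males. Replicates are separate pigs, so the spread between them covers animals and library preparation together. In bulk muscle, fewer cells of a type and less RNA per cell cannot be told apart.

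Libraries held 8009627 to 12622043 counts in features. For 3 females (high drip replicate 2, low drip replicate 1 and low drip replicate 2) the whole-genome table recorded for the animal carried another animal's number. Each animal also had a table of 770 features in chromosomal regions, and this gave 737 to 745 identical counts with the whole-genome table of its own number and at most 167 with any other. For 12 of 12 animals the table of the same number was the best match, so tables were assigned by number, and results are given below also for the 9 animals without this conflict and with the tables as recorded. Albumin, a liver transcript, was above 10 CPM in 6 libraries, 4 of high drip and 2 of low drip (25.6 to 317 CPM, against 0.327 to 2.49 CPM in the other 6). The summed level of 11 hepatocyte markers ran from 3.55 to 552 CPM in high drip and from 2.94 to 92.0 CPM in low drip libraries. A score was formed for each animal by centring the log2 CPM of every member on its mean over the 12 animals and averaging the members. The score of all 39 members was 0.03 ± 0.11 in the 6 libraries with these transcripts and -0.03 ± 0.13 in the 6 without them (SD, n = 6 each). Of the markers for muscle fibres, 8 of 15 listed fast fibre genes and 5 of 13 listed slow fibre genes could be matched by symbol. All of the matched genes passed the filter on low counts. The myosin heavy chain genes MYH1, MYH2, MYH4 and MYH7 were not among them. The fast fibre genes summed to 83409 to 92030 CPM in high drip and 77852 to 88833 CPM in low drip libraries.

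All 39 members passed the filter on low counts, which kept 10627 features. Together they took between 0.888% and 1.07% of all counts in high drip libraries, with a median of 1.03%, and between 0.875% and 1.00% in low drip libraries, with a median of 0.911%. The ranges overlapped, although high drip replicates 2, 4, 5 and 6 lay above every low drip library. This difference was not tested. The coefficient of variation of the members over 12 animals ran from 7.54% for NDUFS5 to 63.3% for NDUFA4L2, with a median of 11.1%. The median over the 5630 features with at least 10 CPM was 15.9%. Most members lay well above 10 CPM, so the 2 medians are not matched for level. NDUFA4L2 and NDUFA6 rested on few reads, 1 to 19 and 22 to 46 counts a library, whereas each other member had at least 141 counts in every library. CPM is not divided by transcript length, so levels of different subunits are not ranked against each other.

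**Figure D1:**
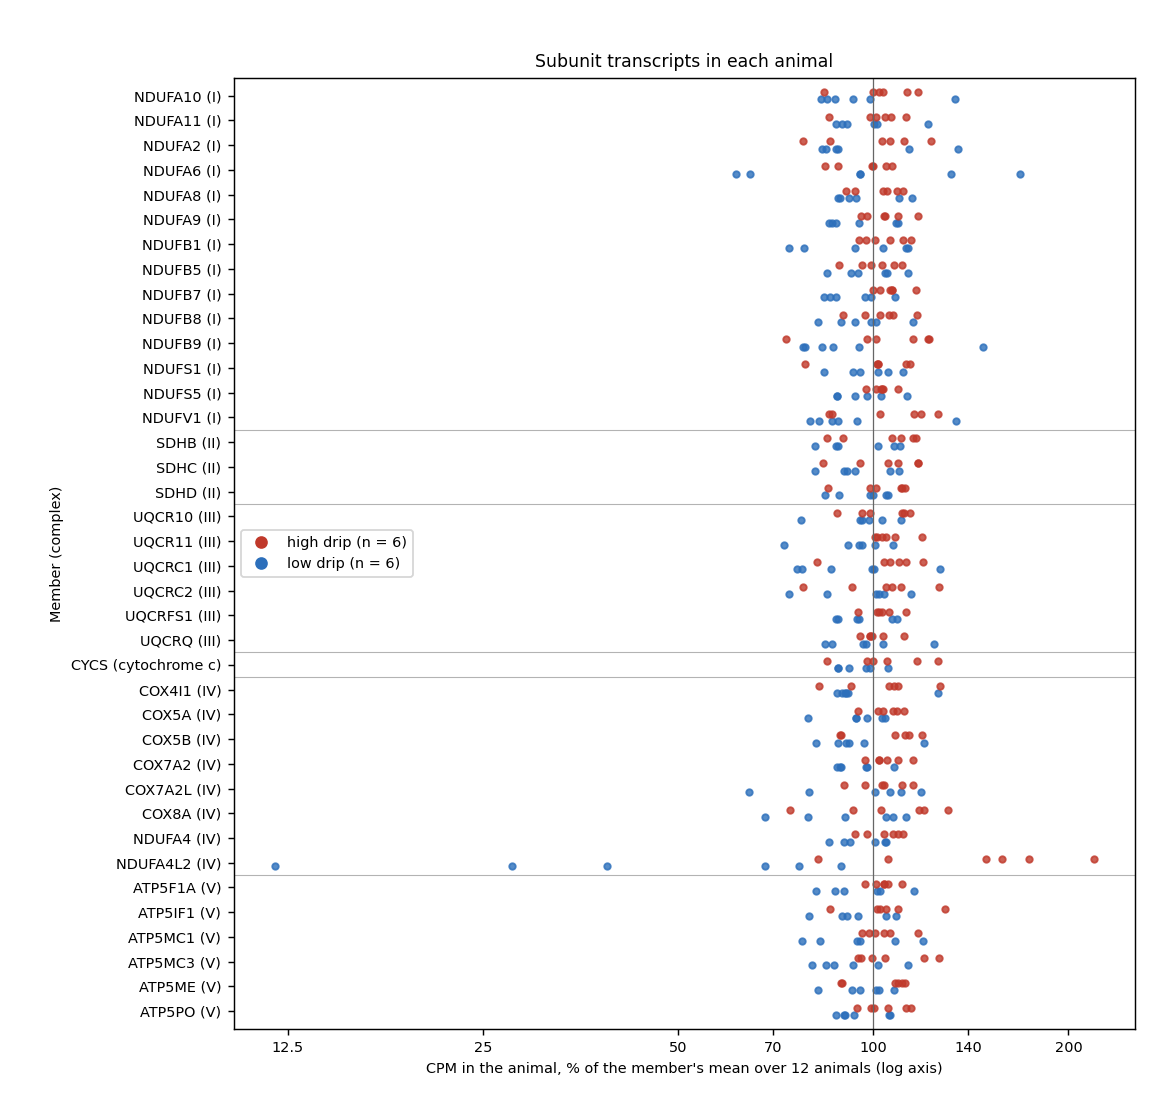
CPM of 38 of the 39 members in each animal as a percentage of that member's mean over 12 animals, on a log axis, with high drip animals in red drawn above low drip animals in blue (n = 6 each) and the complex in brackets. The points of most members lie close to 100%, the groups overlap in every member drawn, and NDUFA4L2 has the widest scatter.

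The drip contrast asked whether subunit transcripts differed between muscles of high and low drip. No member passed the test, and no feature of the 10627 did, in edgeR's quasi-likelihood test at an adjusted p of 0.05 (0%). Unadjusted p fell under 0.05 for 380 features (3.58%) and for 1 member, NDUFA4L2. This gene passed the filter on low counts only through its high drip animals. DESeq2 and limma voom also called 0 features. Fitted log2 folds, high minus low drip, were above 0 for 38 of the 39 members, against 50.4% of all features, with a median of 0.11 against 0.00 over all features. The members vary together over animals, as described further on, so these 38 are not 38 separate observations. Neither here nor in the sex and interaction contrasts below were members matched for level with all features, many of which lay lower in CPM. For no member did the 6 high drip animals lie wholly apart from the 6 low drip animals, which was the case for 0.113% of all features.

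The size of the shift depended on the tables of the 3 females. With the 9 animals free of the conflict, 5 of high and 4 of low drip, the median fold was 0.07 with 30 of 39 members above 0. With the tables as recorded it was 0.02 with 27 of 39 above 0. In males, none of whose tables were in conflict, the median was 0.15 with 36 of 38 tested members above 0, and in females it was 0.06 with 30 of 38 above 0. A term for liver transcripts gave 0.10 with 39 of 39 above 0, and a term for age gave 0.12 with 39 of 39 above 0.

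**Figure D2:**
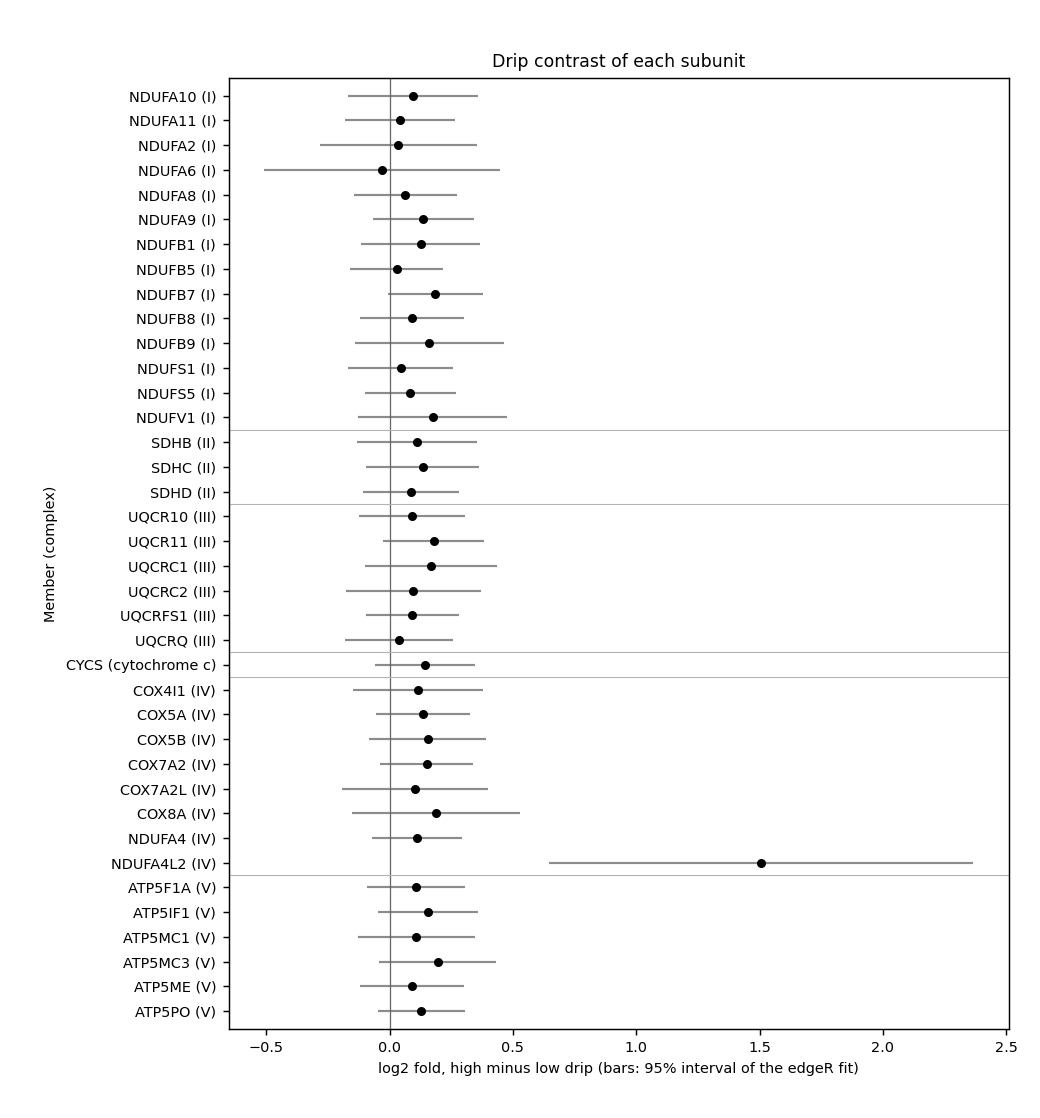
Log2 fold of 38 of the 39 members, high minus low drip, as points, with the complex in brackets. Bars are 95% intervals derived from the F value of edgeR's test. Nearly all points lie a little to the right of 0 and all intervals but that of NDUFA4L2 include 0.

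Complex I takes electrons from NADH, and its 15 members had a median drip fold of 0.08, with 14 above 0. NDUFV1, the subunit that binds NADH and the first flavin, had 104, 132 and 153 CPM (lowest, median, highest) in high drip and 97.2, 106 and 163 CPM in low drip animals. The highest low drip animal, replicate 3, exceeded every high drip animal, although 4 of 6 high drip animals were above the low drip median. The fold of NDUFV1 was 0.17 ± 0.14 (SE), and it was 0.10 without high drip replicate 4 and 0.30 without low drip replicate 3. NDUFB7, an accessory subunit of the membrane arm, had the smallest drip p of the complex, with 64.7, 69.0 and 75.4 CPM in the high drip pigs, against 54.4, 59.9 and 69.9 CPM in the low drip pigs. All 6 high drip animals lay above the low drip median, yet the ranges overlapped. Its fold was 0.18 ± 0.09 (95% interval -0.01 to 0.38), with an unadjusted p of 0.059 and an adjusted p of 0.999. NDUFA9, an accessory subunit of the matrix arm, had 176, 191 and 216 CPM in the high drip pigs, against 157, 168 and 201 CPM in the low drip pigs. Again every high drip animal was above the low drip median, while 2 low drip animals reached the upper part of the high drip range. The fold of NDUFA9 was 0.14 ± 0.10.

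A smaller fold was fitted for NDUFS1, a difference that was not tested. NDUFS1, which carries iron-sulfur clusters of the matrix arm, had 283, 366 and 410 CPM in the high drip pigs, against 301, 354 and 399 CPM in the low drip pigs, a fold of 0.04 ± 0.10. The groups spanned nearly the same range. NDUFA10, an accessory subunit, had 97.1, 119 and 135 CPM in the high drip pigs, against 96.1, 104 and 154 CPM in the low drip pigs. NDUFA6 was the only member with a fold below 0 (-0.03 ± 0.22), at 2.70, 3.20 and 3.43 CPM in the high drip pigs, against 1.97, 3.06 and 5.40 CPM in the low drip pigs. Its low drip animals lay on both sides of the narrow high drip range. Of the other complex I members, NDUFA2, NDUFA8, NDUFA11, NDUFB1, NDUFB5, NDUFB8, NDUFB9 and NDUFS5 had folds between 0.03 and 0.16. The median of complex I was 0.00 with 8 of 15 above 0 in the 9 animals without a conflict, and -0.01 with 7 of 15 above 0 with the tables as recorded.

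Complex II links the citrate cycle to the chain, and its 3 measured subunits had folds of 0.09 to 0.13. SDHB, the iron-sulfur subunit, had 224, 287 and 307 CPM in the high drip pigs, against 215, 251 and 291 CPM in the low drip pigs. SDHC, a membrane anchor, had 256, 328 and 358 CPM in the high drip pigs, against 248, 283 and 335 CPM in the low drip pigs, and SDHD, the other anchor, had 257, 319 and 338 CPM in the high drip pigs, against 255, 301 and 319 CPM in the low drip pigs. The lowest values of the groups were nearly equal in all 3 genes, and the high drip values reached further up. The intervals of their folds all included 0, from -0.13 to 0.35 for SDHB, -0.09 to 0.36 for SDHC and -0.11 to 0.28 for SDHD.

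Complex III had 6 of 6 folds above 0 and a median of 0.09. UQCR11, a small subunit, had 143, 147 and 168 CPM in the high drip pigs, against 103, 135 and 152 CPM in the low drip pigs, a fold of 0.18 ± 0.10 with an unadjusted p of 0.084. All 6 high drip animals were above the low drip median, and 1 low drip animal, replicate 3, lay within the high drip range. UQCRC1, a core protein, had 358, 471 and 521 CPM in the high drip pigs, against 333, 405 and 554 CPM in the low drip pigs. The highest value of UQCRC1 was that of low drip replicate 3, and the fold was 0.17 ± 0.12. UQCRFS1, the Rieske iron-sulfur protein, had 440, 477 and 522 CPM in the high drip pigs, against 408, 440 and 506 CPM in the low drip pigs, a fold of 0.09 ± 0.09. UQCRQ had the smallest fold of the complex, 0.04 ± 0.10, UQCR10 had 0.09 ± 0.10, and UQCRC2, the other core protein, had 0.10 ± 0.13.

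Cytochrome c, the mobile carrier between complexes III and IV, was represented by CYCS. It had 413, 498 and 613 CPM in the high drip pigs, against 429, 459 and 512 CPM in the low drip pigs. The lowest and the highest animal both belonged to the high drip group. The fold was 0.14 ± 0.10. Alignments that were not unique were kept apart from the gene counts, and mammalian genomes hold processed copies of CYCS, so its count is uncertain.

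Complex IV had 8 of 8 folds above 0 and the highest median of the 5 complexes, 0.14. This order was not tested. NDUFA4L2, a relative of NDUFA4 known to be induced under hypoxia, had 0.648, 1.21 and 1.73 CPM in the high drip pigs, against 0.0942, 0.422 and 0.704 CPM in the low drip pigs. The groups overlapped through 1 pair, since high drip replicate 3 (0.648 CPM) lay under low drip replicate 3 (0.704 CPM). The fold was 1.51 ± 0.40 (95% interval 0.65 to 2.37), with an unadjusted p of 0.0021 and an adjusted p of 0.999. The lowest library held 1 read of the gene. No low drip animal was high enough to count towards the filter on low counts. The gene thus entered the test through the high drip group, and its p is no support for a difference. Over the other fits the fold of NDUFA4L2 ran from 1.00 with the tables as recorded to 1.71 without low drip replicate 3, with adjusted p of 0.638 to 1.0. NDUFA4 itself had 525, 592 and 622 CPM in the high drip pigs, against 478, 539 and 586 CPM in the low drip pigs, a fold of 0.11 ± 0.09.

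Among the other complex IV genes, COX7A2, the widely expressed form of subunit 7A, had 36.4, 38.9 and 43.2 CPM in the high drip pigs, against 33.0, 35.01 and 40.4 CPM in the low drip pigs. Every high drip animal was above the low drip median, and the fold was 0.15 ± 0.09. COX5A, which lies on the matrix side, had 342, 381 and 404 CPM in the high drip pigs, against 286, 346 and 378 CPM in the low drip pigs, a fold of 0.13 ± 0.09. COX4I1, the widely expressed form of subunit 4, had 339.9, 439 and 522 CPM in the high drip pigs, against 362, 373 and 518 CPM in the low drip pigs. In 5 of the 6 low drip animals COX4I1 lay between 362 and 377 CPM, and replicate 3 stood apart at 518 CPM. COX8A, the liver-type form of subunit 8, had a fold of 0.19 ± 0.16, and COX5B had 0.15 ± 0.11. COX7A2L, known for joining complexes III and IV into supercomplexes, had 23.1, 26.6 and 29.6 CPM in the high drip pigs, against 16.5, 26.5 and 30.4 CPM in the low drip pigs, so that the medians nearly coincided.

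Complex V had 6 of 6 folds above 0 and a median of 0.12. ATP5MC3, one of the genes that encode the c-ring peptide, had 277, 297 and 369 CPM in the high drip pigs, against 235, 263 and 331 CPM in the low drip pigs, a fold of 0.19 ± 0.11 with an unadjusted p of 0.099. All 6 high drip animals were above the low drip median. ATP5MC1, which encodes the same mature peptide, had 255, 272 and 311 CPM in the high drip pigs, against 206, 252 and 317 CPM in the low drip pigs, a fold of 0.11 ± 0.11. ATP5IF1, the inhibitor of the enzyme's reverse action, had 139.9, 169 and 210.1 CPM in the high drip pigs, against 129.7, 152 and 177 CPM in the low drip pigs, and 5 of 6 high drip animals were above the low drip median. Its fold was 0.16 ± 0.10. ATP5PO, part of the peripheral stalk, had 354, 386 and 429 CPM in the high drip pigs, against 328, 345 and 398 CPM in the low drip pigs, a fold of 0.13 ± 0.08. ATP5F1A, the alpha subunit of the catalytic head, had 1383, 1482 and 1578 CPM in the high drip pigs, against 1164, 1367 and 1649 CPM in the low drip pigs. The high drip values of ATP5F1A lay inside the wider low drip range, and the fold was 0.11 ± 0.09. ATP5ME, a small membrane subunit, had a fold of 0.09 ± 0.10.

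At the level of complexes, scores per animal overlapped between drip groups in each case. The complex I score averaged 0.05 ± 0.08 in high drip and -0.05 ± 0.14 in low drip animals (SD, n = 6 each). For complex II the averages were 0.05 ± 0.15 in high drip and -0.05 ± 0.13 in low drip, and for complex III they were 0.06 ± 0.08 in high drip and -0.06 ± 0.16 in low drip. Complex V averaged 0.07 ± 0.10 in high drip and -0.07 ± 0.11 in low drip animals. The difference between group means was thus about the size of the SD within groups. Complex IV had the widest separation, 0.14 ± 0.12 in high drip and -0.14 ± 0.13 in low drip animals, but without NDUFA4L2 its score was 0.07 ± 0.09 in high drip and -0.07 ± 0.07 in low drip animals.

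**Figure D3:**
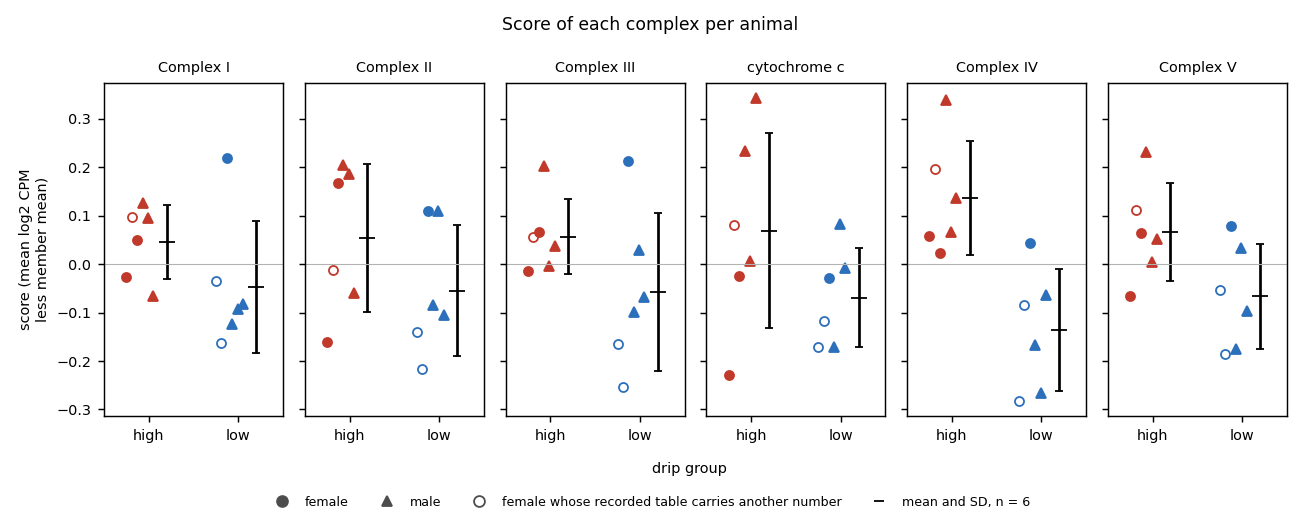
Score of each complex in each animal, on the log2 scale and centred on 0 over the 12 animals for every member, high drip in red left of low drip in blue, with the group mean and SD (n = 6) as bars. Circles are females, triangles are males, and open circles are the 3 females whose recorded table carried another animal's number. The groups overlap in every panel, and in complexes I and III the highest point is 1 low drip female, replicate 3, at 0.22 and 0.21. The scores drawn use TMM scaling. With library totals this female had 0.114 and 0.108. The highest was then high drip replicate 5 in complex I, at 0.171, and high drip replicate 4 in complex III, at 0.149.

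A small number of animals held most of the extremes. High drip replicate 4 had the highest value of the 12 animals in 14 members and was above the member's mean in 39 of 39. Low drip replicate 3, the oldest animal at 189 days, had the highest value in 13 members, among them NDUFA2, NDUFA6, NDUFA8, NDUFA10, NDUFA11, NDUFB9 and NDUFV1 of complex I, UQCRC1 and UQCRQ, COX5B, ATP5F1A and ATP5MC1. Low drip replicate 2 had the lowest value in 14 members and was above the mean in 3. The scores over all members ran from -0.03 to 0.21 in high drip animals and from -0.17 to 0.15 in low drip animals. These extremes rest on TMM scaling. With library totals the score was 0.042 in low drip replicate 3 and -0.067 in low drip replicate 2. Low drip replicate 1 was then lowest, at -0.13. High drip replicates 2, 4, 5 and 6 lay at 0.13 to 0.15, above every low drip animal. Without low drip replicate 3, the median drip fold of the members was 0.17 with 39 of 39 above 0. No feature passed the test in that fit.

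Co-variation over animals was examined as Pearson r of log2 CPM over 12 animals, as a description, because members share library, depth and scaling. Over 741 pairs of members the median r was 0.42, and 632 were above 0. Over all pairs of tested features the median was 0.00, and over pairs of features at or above the 10th percentile of member CPM it was 0.04. After drip and sex were fitted out, the median over member pairs was 0.40, and 0.39 when the 3 females in conflict were left out. Members of the same complex were about as alike as members of different complexes, with medians of 0.41 over 166 pairs and 0.43 over 575 pairs. By complex the median r was 0.37 in complex I, 0.62 in complex II, 0.62 in complex III, 0.38 in complex IV and 0.47 in complex V.

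The closest pairs included pairs across complexes and pairs within 1 complex, where 575 of all 741 pairs cross complexes. ATP5F1A and UQCRC1 had an r of 0.93, SDHB and NDUFA8 had 0.92, and NDUFV1 and NDUFA10, both of complex I, had 0.91. COX4I1 and COX5B, both of complex IV, also had 0.91. UQCRFS1 had the highest median r with the other members, 0.63, and was positively related to 37 of 38. CYCS was closest to ATP5PO at 0.86.

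Some members had low or negative r with the others. NDUFA6 and COX8A had median r of 0.11 and 0.10 with the other members, with 22 and 27 of 38 above 0. COX7A2L had a median r of -0.30 with the other members and was positively related to 10 of 38. Its median r was -0.05 without low drip replicate 3 and -0.15 without low drip replicate 2, each with 14 of 38 above 0, and ran from -0.43 to -0.27 without any 1 of the other animals, values that were added after the data were seen. The complex I subunits NDUFB1, NDUFB5 and NDUFS5 were related to each other at 0.61 to 0.68, but with the other 12 complex I members their median r was -0.13, with 25 of 36 pairs below 0. Those 12 had a median r of 0.56 among themselves. NDUFA6 and NDUFB5 had the most negative r of any pair, -0.75. Without low drip replicate 3, in which NDUFB5 and NDUFS5 were lowest and many others highest, the r of the trio with the rest of complex I had a median of 0.13 with 9 of 36 below 0. These 3 genes were singled out after their values were seen.

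**Figure D4:**
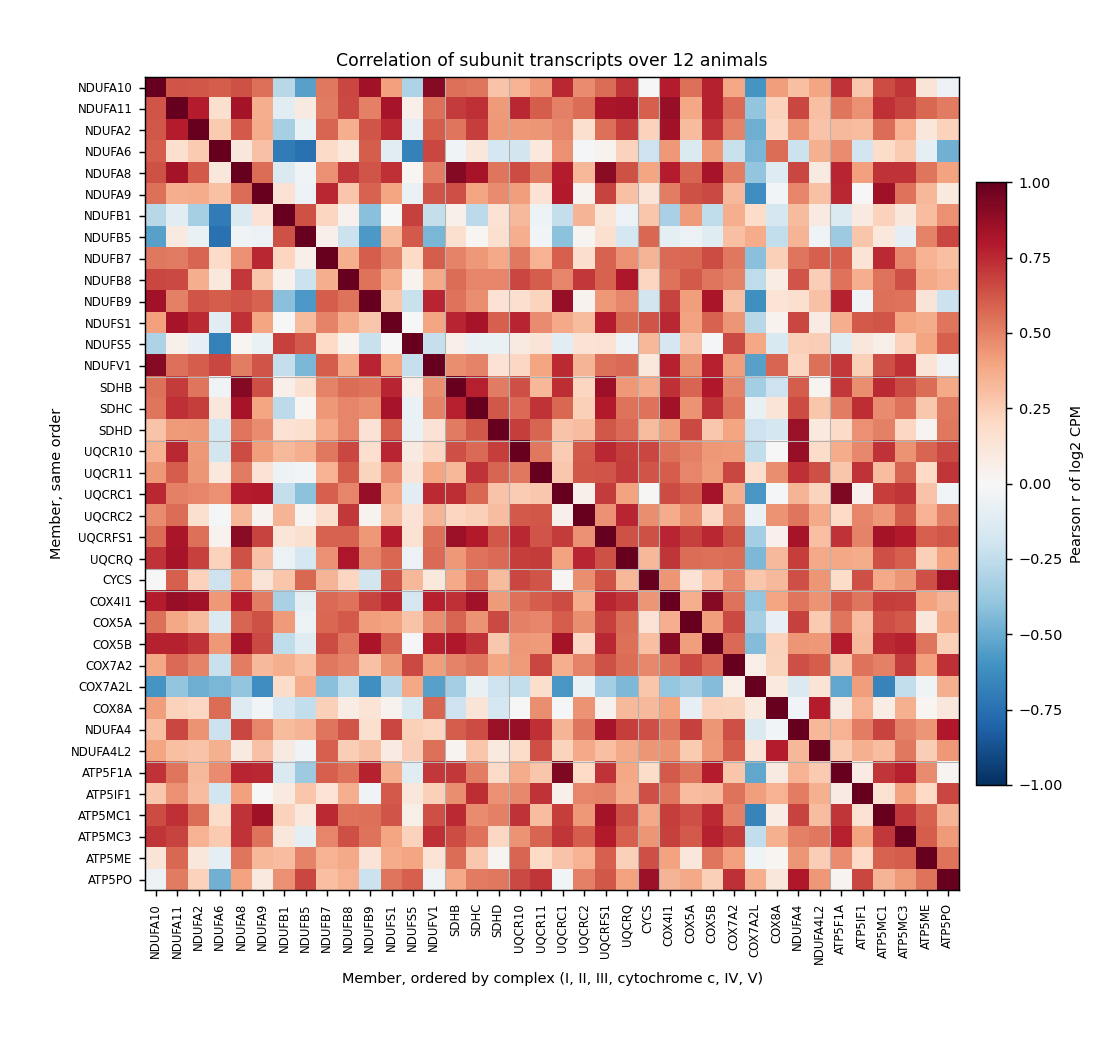
Pearson r of log2 CPM over 12 animals for each pair among 38 of the 39 members, ordered by complex with grey lines between complexes; red is positive and blue negative. Red fills blocks within and between complexes alike (medians 0.41 and 0.43 over all 39). COX7A2L, the trio NDUFB1, NDUFB5 and NDUFS5, and also NDUFA6 and COX8A, form bands with many pale or blue cells.

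The complex scores also moved together. Complexes III and V had an r of 0.87 over 12 animals (Spearman's rho 0.92), and 0.89 without the 2 animals farthest from the median. Complexes I and III had 0.81 (rho 0.79), and 0.64 without the 2 farthest, which were high drip replicate 4 and low drip replicate 3. Complexes I and V had 0.76, II and III had 0.77, and I and II had 0.70. The lowest value among the 5 complexes was 0.40, between complexes II and IV, and it was 0.63 with NDUFA4L2 taken out of the complex IV score.

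Other gene lists of mitochondria and muscle were set beside the subunits. The score of 12 citrate cycle genes followed that of the members with r = 0.81 (rho 0.84; 0.68 without the 2 farthest animals), and it followed complex II, which also belongs to that cycle, with r = 0.92. Transporters and kinases of ATP and phosphate exchange had r = 0.77 (rho 0.73; 0.61 without the 2 farthest). Fast fibre genes had r = 0.62 (rho 0.57; 0.38 without the 2 farthest) and slow fibre genes 0.46 (rho 0.47; 0.48 without the 2 farthest). These scores weight all genes alike, and 1 gene varied most in each, PVALB (25.1 to 296 CPM) and CSRP3 (78.0 to 1206 CPM). High drip replicate 3 was highest of all animals in TNNC2, MYL1 and MYOZ1. Its TMM factor was the lowest of the 12 libraries, 0.879, which raises its CPM, so these ranks rest on that scaling. Its fast fibre score was still -0.08, with the lowest PVALB. The r without PVALB and CSRP3 was not examined. With library totals in place of TMM scaling, the slow fibre value was 0.04 and the fast fibre value 0.65. Regulators of mitochondrial biogenesis had r = -0.27 (rho -0.11; 0.03 without the 2 farthest). Hepatocyte markers had r = 0.23 and adipocyte markers -0.20.

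**Figure D5:**
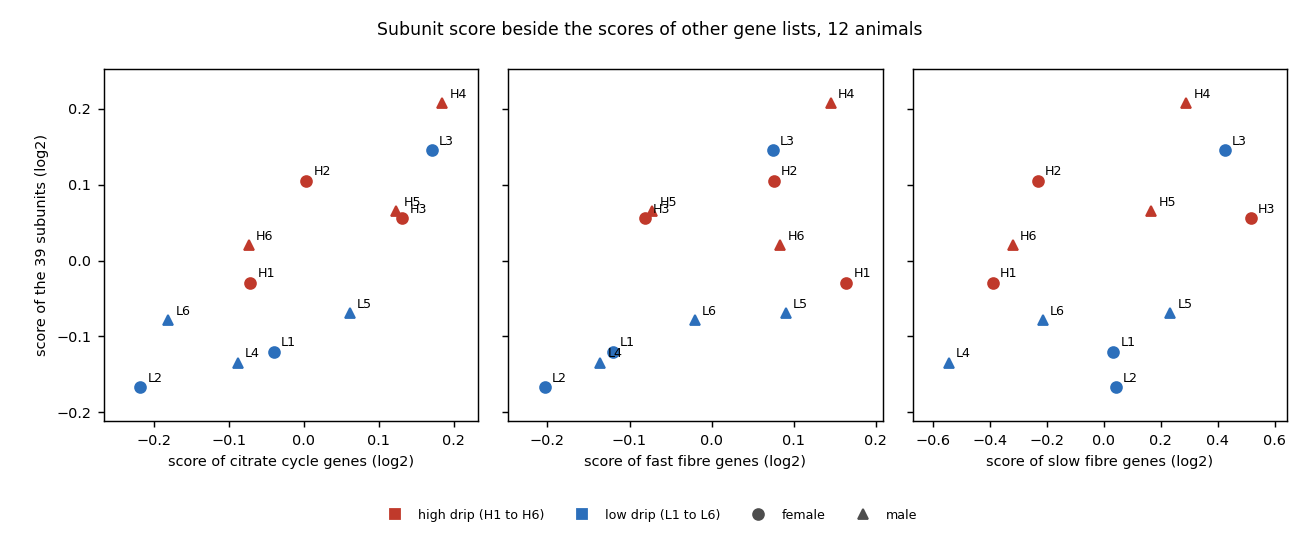
Score of the 39 subunits (vertical) against the scores of citrate cycle, fast fibre and slow fibre genes (horizontal), all on the log2 scale, 1 point per animal, with high drip in red and low drip in blue, H1 to H6 and L1 to L6 being replicates. The points follow a rising line most closely for the citrate cycle genes, r = 0.81 over 12 animals.

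In the drip contrast none of these lists had a called gene. All 12 tested citrate cycle genes had folds above 0, with a median of 0.09. Of the complex I assembly factors 9 of 12 were above 0 (median 0.07), and of the complex IV assembly factors 7 of 10 (median 0.08). The complex I assembly factor TMEM126B averaged 47.2 ± 2.13 CPM in the high drip pigs, against 39.9 ± 4.16 CPM in the low drip pigs (SD, n = 6 each). Its fold of 0.25 ± 0.09 had an unadjusted p of 0.019 and an adjusted p of 0.999. Of the biogenesis regulators 2 of 9 were above 0 (median -0.03). PPARD, a nuclear receptor that acts on fatty acid oxidation, averaged 25.02 ± 4.74 CPM in the high drip pigs, against 32.5 ± 9.80 CPM in the low drip pigs (SD, n = 6 each), a fold of -0.38 ± 0.19. Fast fibre genes had 8 of 8 folds above 0 (median 0.07) and slow fibre genes 4 of 5 (median 0.08). Hepatocyte markers had 9 of 10 above 0 with a median of 1.63, and adipocyte markers 1 of 6 with a median of -0.43. The 6 adipocyte markers summed to between 200.2 and 685 CPM in high drip libraries and between 277 and 759 CPM in low drip libraries. Of 5 fibroblast markers 1 was above 0, of 4 endothelial markers 3, of 6 macrophage and lymphocyte markers 5, and the 1 erythroid marker was above 0. The part of any of these in the subunit values was not tested, beyond the fit with a liver term.

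Males and females were compared across both drip groups. No member and no feature passed edgeR's test (0%), 681 features had an unadjusted p under 0.05 (6.41%), and DESeq2 called 2 features and limma voom 0. Folds, male minus female, were above 0 for 22 of 39 members, against 50% of all features, with a median of 0.02. NDUFB9, a complex I accessory subunit, had 190.3, 210.2 and 299.5 CPM (lowest, median, highest) in males and 226, 289 and 383 CPM in females. The fold of -0.36 ± 0.14 had an unadjusted p of 0.023 and an adjusted p of 0.739. In males 1 animal was above the female median, and the ranges overlapped. The fold of NDUFB9 was -0.21 with a term for age and -0.23 without low drip replicate 3.

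ATP5IF1 had 154, 170.3 and 210.1 CPM in males and 129.7, 147 and 178 CPM in females, a fold of 0.21 ± 0.10 with an unadjusted p of 0.042 and an adjusted p of 0.764. The lowest male exceeded most females, but 2 females lay within the male range. NDUFA6 averaged 2.75 ± 0.59 CPM in males and 3.67 ± 0.99 CPM in females (SD, n = 6 each). Among assembly factors, COX16 averaged 5.22 ± 0.32 CPM in males and 3.39 ± 0.74 CPM in females (SD, n = 6 each). Its fold of 0.62 ± 0.17 had an unadjusted p of 0.0023 and an adjusted p of 0.627. SUCLG2, a citrate cycle enzyme subunit, had a fold of 0.33 ± 0.15. As in the drip contrast, no member had males wholly apart from females, which was the case for 0.301% of all features.

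Whether the drip contrast differed between the sexes was tested as an interaction, the fold in males minus the fold in females. No member and no feature passed edgeR's test (0%), 371 features had an unadjusted p under 0.05 (3.49%), and DESeq2 called 7 features and limma voom 0. Values were above 0 for 29 of 39 members, against 50.5% of all features, with a median of 0.10. Without low drip replicate 3, a female, the median was -0.05 with 16 of 39 above 0. It was 0.31 in the 9 animals without a conflict, which left 1 low drip female, low drip replicate 3, and 0.28 with the tables as recorded. Albumin was above 10 CPM in 1 of 3 high drip males and 2 of 3 low drip males, and in 3 of 3 high drip females and 0 of 3 low drip females. In the same contrast 10 of 10 hepatocyte markers were below 0, with a median of -7.82, and 9 of them had an unadjusted p under 0.05. With a liver term the median of the members was 0.22 with 35 of 39 above 0.

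NDUFA6 had the smallest interaction p of the members. It averaged 3.13 ± 0.27 CPM in high drip males and 2.37 ± 0.60 CPM in low drip males, and 3.11 ± 0.37 CPM in high drip females and 4.23 ± 1.17 CPM in low drip females (SD, n = 3 each). The means of the sexes nearly coincided in high drip and lay apart in low drip animals. The interaction was 0.85 ± 0.40, with an unadjusted p of 0.052 and an adjusted p of 1.0. NDUFV1 averaged 132 ± 25.5 CPM in high drip males and 102 ± 5.12 CPM in low drip males, and 125 ± 19.7 CPM in high drip females and 128 ± 31.2 CPM in low drip females (SD, n = 3 each). Its interaction was 0.42 ± 0.27, and it was 0.20 without low drip replicate 3, the low drip female at 163 CPM, 0.57 without high drip replicate 6 and 0.88 in the 9 animals without a conflict. NDUFA9 averaged 199 ± 17.9 CPM in high drip males and 165 ± 9.12 CPM in low drip males, and 186 ± 8.76 CPM in high drip females and 187 ± 24.0 CPM in low drip females (SD, n = 3 each). For NDUFV1 and NDUFA9 the means of the drip groups nearly coincided in females, with low drip replicate 3 among the animals averaged.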

How the data were processed

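Muscle RNA of 12 pigs was sequenced with 1 library per animal. Per the labels' protocols, RNA was extracted with Trizol, treated with DNase and made into TruSeq v2 libraries. The authors deposited raw counts per feature, made with TopHat2 2.0.3, Bowtie 0.12.7.0, the pig build Sscrofa10.2 and HTSeq, per the submitters' processing notes. Strand, counting mode and annotation release are not given in the sources used here. Between 39.9% and 44.4% of alignments lay outside the counted features in separate lines (no feature, ambiguous, not unique) and were left out.

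Tables were assigned by the number in their name. The test was the two-sided quasi-likelihood F-test of edgeR 4.0.16 (R 4.3.3), with sex and drip as terms, TMM factors, low counts removed by filterByExpr over the 4 drip and sex groups, and Benjamini-Hochberg adjustment over 10627 features at 0.05. Folds are fitted log2 folds with SE, and CPM uses TMM-scaled library sizes, except for summed marker levels and albumin, which use the whole table. The SE was derived as the absolute fold divided by the square root of the F value. Intervals were derived from this SE and the t distribution, so both are approximate. Scores and correlations use log2 CPM with a prior count of 2. Alternatives used DESeq2 1.42.0, limma 3.58.1, other filters, terms, scalings and sets of animals. The fitting code was tested on simulated data. Intervals are 95%, and counting error alone limits NDUFA4L2 and NDUFA6 most.

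The members and gene lists were chosen with earlier results of these data known. Named in each of complexes I, III, IV and V were the 3 members with the smallest drip p, the 2 with the smallest sex p, the 2 highest and the 1 lowest in CPM. All complex II members, CYCS, tissue isoforms, the 3 smallest interaction p values and the 2 highest and 2 lowest correlations with the own complex were named too. In each other pathway list the genes with the smallest drip and sex p were eligible. NDUFA8, NDUFS5 and low drip replicate 3 were singled out after their values were seen. Gene lengths and sequences were not used here. Values of 1 complex I member entered the fits, counts and medians but are not reported here on their own.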

Additional observations from a re-analysis of the deposited data

Results flagged for a closer look

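In 90 groups of 6 values (members and scores, by drip group), 8 held 1 animal far from the other 5 by Dixon's criterion at 95%, which chance gives in about 1 of 20 groups. The members vary together and the scores average them, so the 90 groups are not independent. The 8 can therefore not be read as an excess over that rate. In the low drip group, replicate 3 stood above the others in 4 complex I and IV genes. NDUFA10 was 154 CPM there, with the next animal at 114 CPM. NDUFB9 was 383 CPM, with the next at 247 CPM. NDUFV1 was 163 CPM, with the next at 115 CPM. COX4I1 was 518 CPM, with the next at 377 CPM. The complex I score of the same animal was 0.22, with the next low drip animal at -0.04, and its score over all members was 0.15, with the next at -0.07. In the high drip group, NDUFS1 was 283 CPM in replicate 1, with the next animal at 365 CPM, and the complex III score was 0.20 in replicate 4, with the next at 0.07. The flagged scores use TMM scaling. With library totals the complex III score was 0.149 in high drip replicate 4 and 0.146 in high drip replicate 6. In low drip replicate 3 the complex I score was then 0.11, with the next low drip animal at -0.036. Its score over all members was 0.042, with the next at -0.048. Low drip replicate 3 had no conflict between its tables, 0.327 CPM of albumin, and the highest age of the 12 animals, 189 days. The part of age in these values was not tested.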

How the results depend on the processing

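Called features numbered 0 for drip in every fit run. For sex DESeq2 called 2 and the fit with no filter 1, and for the interaction DESeq2 called 7 and the fit with a liver term 1. Median drip folds of the complexes stayed above 0 except for complex I with the tables as recorded. Leaving out 1 animal at a time gave 0.08 to 0.17 over all members, 0.04 to 0.13 for complex I and 0.12 to 0.20 for complex IV. The interaction medians moved most, and the cause was not tested. In the 9 animals without a conflict they were 0.32, 0.24, 0.26, 0.32 and 0.25 for complexes I to V and 0.31 over all members. With the tables as recorded they were 0.33, 0.24, 0.23, 0.28 and 0.31, and 0.28 over all members. With a liver term they were 0.24, 0.26 and 0.32 for complexes II, IV and V, 0.35 for CYCS and 0.22 over all members. Leaving out 1 animal gave -0.047 to 0.24 for complex I, -0.02 to 0.18 for II, -0.11 to 0.14 for III, 0.02 to 0.20 for IV, -0.00060 to 0.20 for V, 0.10 to 0.27 for CYCS and -0.047 to 0.18 over all members.

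Of 918 refits of drip folds for 40 genes, 23 changed sign, in 10 genes. None of 350 for sex and 65 for the interaction did. All sex and interaction genes and many drip genes here were named for their small p in these same data. Many refits left out only 1 animal. A low count of sign changes was thus largely fixed in advance and does not measure stability. NDUFA6 was 0.12 as recorded, 0.011 with age, 0.14 with a liver term and -0.13 to 0.12 without 1 animal. In the 9 animals NDUFS1 was -0.014, NDUFA10 -0.012, UQCRQ -0.064, UQCC2 -0.00351 and OXA1L -0.037. As recorded, NDUFS1 was -0.047, UQCR10 -0.00156, SDHB -0.012, NDUFA10 -0.042, UQCRQ -0.037, NDUFB1 -0.00809 and OXA1L -0.096. Without 1 animal, UQCRQ ran from -0.00728 to 0.13 and NDUFB5 ran from -0.00581 to 0.064. No paired analysis was possible because the replicate numbers were given in accession order and tie no animal of one group to an animal of the other.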
